A study of Mus musculus with 20 samples.

Results

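The promoters described here belong to genes whose expression was high in spermatocytes, the germ cells in meiosis, and low in spermatogonia, the mitotic germ cells that precede them. The deposited table gives for each gene an expression value in 6 testis populations, taken from an independent study. There spermatogonia came from pups and Sertoli cells from juveniles, while the other populations came from adult mice. Stage and age thus differ together between spermatogonia and spermatocytes. A promoter was included when the value in spermatocytes exceeded that in spermatogonia by at least 3 and was at or above that in spermatids, the haploid cells that follow meiosis. Of the 22480 promoters of the study, 17133 had an expression value, 1117 met the first condition and 555 met both. Of the 555, 47 genes annotated with spermatogenesis, 2 imprinted genes, 62 genes of the sperm proteome and 91 with symbols of RIKEN transcripts, microRNAs, receptor families or zinc finger proteins were left out, with overlap between these reasons, and 368 spermatocyte-high promoters remained. No methylation value entered this choice, and no probes of the 368 overlapped each other.

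In meiosis, homologous chromosomes pair along the synaptonemal complex, recombine through programmed double-strand breaks and then separate in cell divisions that halve the genome. The long pachytene stage of meiotic prophase is known for a broad wave of transcription, driven in part by the factor MYBL1 (A-MYB), which switches on many genes needed only later for the sperm tail, while the X and Y chromosomes are silenced. DNA methylation of the male germ line is laid down before birth, in the fetal prospermatogonia, and most CG-rich promoters stay free of it through meiosis and in mature sperm.

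Sperm DNA of 20 males was analyzed, 5 for each combination of the strains C57BL/6J and FVB/N with DEHP or vehicle, which makes 4 groups. DEHP (bis(2-ethylhexyl)phthalate), a plasticizer, was given by mouth to pregnant females in corn oil at 300 mg/kg/day on gestation days 9 to 19, control mothers received corn oil alone over the same days, and sperm was taken from the vas deferens and epididymis of their sons at 8 weeks of age. In MBD-sequencing, DNA fragments that carry methylated CG sites are pulled down by a methyl-CpG binding protein domain, and the number of read-pairs over a promoter rises with its methylation and with its number of CG sites. The measurement per promoter is the authors' mean and SD of normalized read-pairs over the 5 males of a group, in a probe of 2200 bp that runs from 2000 bases before to 200 bases after the gene start. Only these group values were used here, so the depth of each library is unknown, and the number of mothers behind each group is not stated in the sources used here, so that p-values measure the spread between these males. The DEHP libraries and the control libraries were submitted for sequencing separately and with different read lengths, each submission with males of either strain, which means that an effect of DEHP and one of the submission cannot be told apart. Since a library holds the DNA of many cells, the share of cells methylated at a probe and the number of methylated sites per cell cannot be told apart either. Over all promoters the authors' means of controls summed to 226268 read-pairs (C57BL/6J) and 141091.6 (FVB/N), and those after DEHP to 153283 and 150346. For the tests, each group was therefore scaled to the same sum, and differences are given as log2(scaled mean + 1), whereas levels are given as deposited.

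The 6 promoters below carry the results that follow, each over 300 bases from 250 before to 50 after the gene start, read 5′ to 3′ on the strand of the gene with every CG in capitals (RefSeq, GRCm38.p6, the assembly of mm10). Pafah2 (chr4:134396070-134396369, plus strand, 15 CG) and Kcnj9 (chr1:172329273-172329572, minus strand, 5 CG) had among the clearest strain differences. Noxo1 (chr17:24695984-24696283, plus strand, 46 CG) and Ttc29 (chr8:78213092-78213391, plus strand, 11 CG) had the smallest p-values among promoters lower and higher after DEHP in FVB/N. Smim8 (chr4:34778317-34778616, minus strand, 25 CG) was called in opposite directions in the 2 strains, and Spata4 (chr8:54600531-54600830, plus strand, 8 CG) had the largest rise of expression from spermatogonia to spermatocytes.
Pafah2: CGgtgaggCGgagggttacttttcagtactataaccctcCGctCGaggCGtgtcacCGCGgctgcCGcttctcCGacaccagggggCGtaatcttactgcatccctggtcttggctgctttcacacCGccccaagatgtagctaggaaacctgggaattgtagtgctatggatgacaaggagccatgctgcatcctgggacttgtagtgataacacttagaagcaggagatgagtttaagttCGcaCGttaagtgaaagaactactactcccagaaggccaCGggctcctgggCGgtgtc
Kcnj9: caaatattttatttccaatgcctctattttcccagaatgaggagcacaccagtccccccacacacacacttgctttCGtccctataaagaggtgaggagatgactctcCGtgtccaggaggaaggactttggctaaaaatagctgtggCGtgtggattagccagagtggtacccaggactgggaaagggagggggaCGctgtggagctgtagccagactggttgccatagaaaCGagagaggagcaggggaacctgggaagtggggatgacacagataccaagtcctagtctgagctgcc
Noxo1: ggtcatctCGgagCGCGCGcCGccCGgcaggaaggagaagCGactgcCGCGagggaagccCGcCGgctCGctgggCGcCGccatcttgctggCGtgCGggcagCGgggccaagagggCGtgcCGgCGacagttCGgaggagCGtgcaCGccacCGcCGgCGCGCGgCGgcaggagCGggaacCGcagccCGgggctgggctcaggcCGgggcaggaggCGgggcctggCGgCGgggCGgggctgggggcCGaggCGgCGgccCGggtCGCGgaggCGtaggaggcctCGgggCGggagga
Ttc29: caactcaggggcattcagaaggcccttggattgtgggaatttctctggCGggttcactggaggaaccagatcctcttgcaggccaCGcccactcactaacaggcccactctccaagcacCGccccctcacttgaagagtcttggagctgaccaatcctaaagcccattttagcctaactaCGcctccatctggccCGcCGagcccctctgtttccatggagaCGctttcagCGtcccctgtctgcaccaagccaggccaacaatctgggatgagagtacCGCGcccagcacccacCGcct
Smim8: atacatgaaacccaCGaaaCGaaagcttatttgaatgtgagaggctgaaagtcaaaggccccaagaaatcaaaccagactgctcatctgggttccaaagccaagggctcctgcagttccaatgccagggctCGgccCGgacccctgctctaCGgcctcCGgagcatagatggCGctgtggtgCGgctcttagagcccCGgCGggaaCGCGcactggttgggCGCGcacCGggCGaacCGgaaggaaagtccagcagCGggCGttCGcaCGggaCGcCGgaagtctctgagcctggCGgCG
Spata4: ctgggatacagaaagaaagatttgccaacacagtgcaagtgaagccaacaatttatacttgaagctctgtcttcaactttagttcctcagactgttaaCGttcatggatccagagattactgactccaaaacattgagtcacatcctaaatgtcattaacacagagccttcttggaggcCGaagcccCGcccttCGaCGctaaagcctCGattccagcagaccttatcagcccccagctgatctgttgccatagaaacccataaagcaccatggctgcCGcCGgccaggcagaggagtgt
These windows show the range of CG content among the spermatocyte-high promoters. The Noxo1 window is a dense CpG island, whereas the Kcnj9 window has few CG sites and long stretches without any.

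The rule left several properties of the promoters untouched. The number of CG sites in the 368 probes ran from 6 to 204, the median being 50.5 and the quartiles 32 and 71. The median was 45 over all promoters, 34 at 533 promoters chosen in the same way for spermatids and 59 at 785 chosen for spermatogonia, so that the spermatocyte-high promoters lay between those of the earlier and the later stage. The ratio of observed to expected CG had the same order, with medians of 0.402 at spermatocyte-high, 0.279 at spermatid-high and 0.437 at spermatogonia-high promoters, against 0.358 over all promoters. A gene starting in the opposite direction within the probe was annotated in GENCODE at 85 of the 368 promoters (23.1%), against 13.6% of all promoters, 18% of spermatid-high and 11.7% of spermatogonia-high ones. Position on the X chromosome is not such a property, since the expression conditions themselves took the X-linked promoters from 490 to 8 and then to 0. The X chromosome thus held 0 of the 368, although 490 of the 17133 promoters with an expression value (2.86%) lie on it. It held 84 of the 785 spermatogonia-high promoters (10.7%), which expression also chose. All 8 X-linked genes among the 1117 that passed the first condition were higher in spermatids than in spermatocytes. These shares describe the sets and were not tested.

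Sequence around the gene start was matched for 273 of the 368 promoters and for 15791 of all promoters, on both strands. The letters CAACNG, which fit the MYB motif, occurred at 132 of the 273 (48.4%) and at 33.8% of all promoters. TAACNG, also a MYB motif, occurred at 76 (27.8%) and at 21.4% of all. Either form was present at 176 of the 273 spermatocyte-high promoters (64.5%), 56.9% of spermatid-high, 41.1% of spermatogonia-high and 47.5% of all promoters. The RFX-type letters GTTGCC, which can share bases with CAACNG read on the other strand, occurred at 51 (18.7%) against 12.5% of all promoters and 24.2% of spermatid-high ones. TCCCGC, which fits E2F, was at 88 (32.2%) against 26.5%, CACGTG, an E-box, at 24 (8.79%) against 8.18%, and TGACGTCA, the cAMP response element, at 8 (2.93%) against 2.51%. In the windows printed above, Spata4 holds both MYB forms and the RFX-type letters, which share bases there with the CAACNG form. Ttc29 holds the second MYB form, Kcnj9 the RFX-type letters, Noxo1 and Smim8 the E2F letters, and Pafah2 none of the 6. A match says only that these letters are in the window.

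The expression values that the rule did not use were high where later germ cells abound, and in this the set resembled the spermatid-high one. On the scale of the deposited values, which is not stated, the medians over the 368 genes were 9.20 in seminiferous tubules and 9.22 in total testis, both rich in germ cells of the later stages, and 4.88 in Sertoli cells, the somatic cells of the tubule. The spermatid-high genes had 9.61, 9.59 and 4.66, so these values do not tell the stages apart. The values that chose the genes had medians of 10 in spermatocytes, 9.15 in spermatids and 5.03 in spermatogonia, and the difference between spermatocytes and spermatogonia ran from 3.00 to 10.1 with a median of 4.12. Just inside the limit of 3 were Mrs2 (3.00), Meiob (3.00) and Fam84a (3.01), with 18.2, 6.1 and 0.5 read-pairs in C57BL/6J controls. Just outside were Fam216a (3.00), Rimklb (2.99) and Fam45a (2.98), with 19.1, 10 and 0.7 read-pairs. Few textbook genes of meiosis are in the set. Many did not reach the limit of 3, such as Sycp1 (1.58), Sycp3 (2.33) and Dmc1 (-0.81). Others passed it but not the remaining conditions, such as Spo11 (6.38) and Hspa2 (5.37). The name therefore stands for higher expression in adult spermatocytes than in spermatogonia of pups, and not for a role in meiosis.

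Read-pairs were sparse at most of these promoters. The median level in C57BL/6J was 5.2 normalized read-pairs per probe without and 5.3 with DEHP, and in FVB/N it was 3.1 and 5.25, against 5.0, 5.3, 3.0 and 4.9 over all promoters. At 20 read-pairs or more lay 37 of the 368 (10.1%), 6 (1.63%), 13 (3.53%) and 6 (1.63%) in the same order, against 14.6%, 3.35%, 6.25% and 4.02% of all promoters. Spermatid-high promoters had medians of 7.4, 6.9, 4.1 and 6.6, and spermatogonia-high ones 4.1, 4.3, 2.7 and 4.1, which is the reverse of their order in CG content. Where a mean was 5 or more, the SD between the 5 males had a median of 36.8%, 36.6%, 50% and 32.2% of the mean in these groups. This is the spread between males and not the error of a difference between 2 group means, which is smaller. On the log2 scale of the tests, the median residual SD of the 368 was 0.64. The median SE of their differences between DEHP and control was 0.43.

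**Figure D1:**
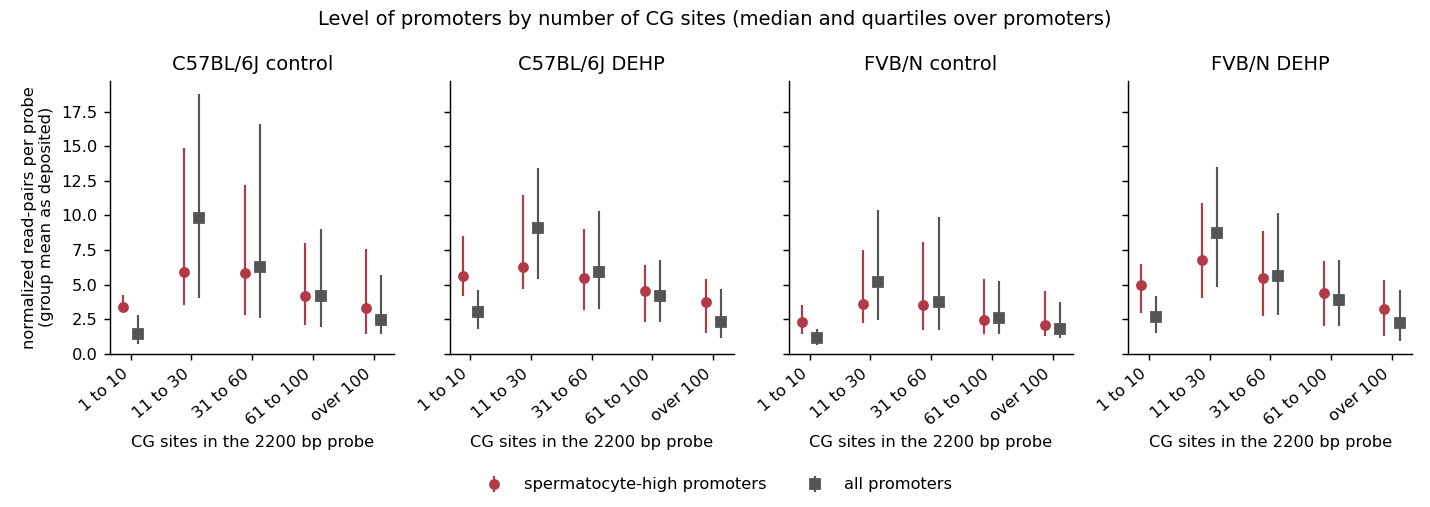
Normalized read-pairs per probe, as deposited, against the number of CG sites in classes, in each of the 4 groups, with points for the median and lines for the quartiles over spermatocyte-high promoters (red) and all promoters (grey). Among probes with 11 to 30 CG sites the 81 spermatocyte-high promoters lie lower than all promoters, with medians of 5.9 against 9.8 in C57BL/6J controls, while at 1 to 10 sites (3.35 against 1.4) and above 100 (3.3 against 2.4) they lie higher. All promoters include the gene families that the rule left out.

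The level depended on the number of CG sites. Set against all promoters of the same class, the spermatocyte-high promoters were lower at 11 to 30 sites. From 31 to 100 sites they were close to all promoters, and at both ends they were higher. All promoters include the RIKEN, microRNA, receptor and zinc finger symbols that the rule left out, whereas the spermatid-high and spermatogonia-high sets do not. The paper reports more reads at microRNA promoters and fewer at olfactory and vomeronasal receptor promoters than at others. In the lowest class the set begins at 6 sites and all promoters at 1. The part of these unlike members in the levels was not tested. Of the 368 probes, 81 held 11 to 30 CG sites, with medians of 5.9 and 6.3 read-pairs in C57BL/6J controls and DEHP, and of 3.6 and 6.8 in the same FVB/N groups. All promoters of that class had 9.8, 9.1, 5.2 and 8.7, and the spermatid-high ones 10.55, 9.65, 5.7 and 9.75. The spermatogonia-high promoters of the class were at 7.5, 7.7, 4.6 and 8.2. With 31 to 60 sites (148 probes) the medians were 5.8, 5.5, 3.5 and 5.5, against 6.3, 5.9, 3.7 and 5.6 of all promoters, and with 61 to 100 sites (101 probes) 4.2, 4.5, 2.4 and 4.4, against 4.2, 4.2, 2.6 and 3.9. Above 100 sites the 32 probes had medians of 3.3, 3.7, 2.05 and 3.25, against 2.4, 2.3, 1.8 and 2.2, and the 6 probes with 1 to 10 sites had 3.35, 5.65, 2.3 and 4.95, against 1.4, 3.0, 1.1 and 2.65. Across the 368 promoters the level fell with the ratio of observed to expected CG, with Spearman's rho of -0.32, -0.41, -0.31 and -0.38 in the 4 groups. Over all promoters this rho was -0.16, -0.31, -0.13 and -0.28. With the expression value in spermatocytes rho was 0.06, 0.04, 0.08 and 0.06 across the 368. With its difference from spermatogonia rho was 0.10, 0.14, 0.15 and 0.16. The rule chose on both expression measures, which cuts their range, so their rho cannot be weighed against that of CG. These correlations run across promoters of the same libraries and describe them only.

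A few members were heavily covered. Cdkl4, a kinase of the cyclin-dependent-like family, had the highest level, with 89.2 ± 22.8 read-pairs (mean ± SD, n = 5 males, as for all values that follow) in C57BL/6J controls and 24.1 ± 12.2 after DEHP, next to 82.8 ± 13 and 35.4 ± 6.6 in FVB/N. Fam181a (63.1 ± 19.1, 28.7 ± 9.4, 44.5 ± 15.5 and 28.6 ± 9.7 in the same order) and Qrich2, a protein of the sperm flagellum (59.1 ± 30.8, 21.2 ± 4.7, 53.5 ± 13.6 and 22.4 ± 7.2), followed. The scaled mean over the 4 groups was above 20 at 13 promoters, which were, in descending order, Cdkl4, Fam181a, Qrich2, Dhx58, Mif4gd, Crybg3, Enkd1, Znhit1, Fbxw5, C8b, Cers3, Mag and Cdsn. In GENCODE, 4 of the 13 probes begin far inside their gene, at 13979 bases from the outermost 5′ end for Cdkl4, 3984 for Fam181a, 11894 for Qrich2 and 45227 for Crybg3, and the Mif4gd probe holds no annotated exon of Mif4gd. Of all 368 probes, 36 (9.78%) began over 1000 bases inside the gene, a share close to the 10.4% of all promoters. In C57BL/6J controls 19.4% of these 36 had 20 read-pairs or more, against 8.71% of the 310 that began within 1000 bases, among the 346 probes that hold their own gene in GENCODE. Over all promoters the shares were the other way round, at 11.6% and 15%.

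The comparison of DEHP with control asks whether prenatal exposure moved methylation at these promoters in either strain. In C57BL/6J, 8 of the 368 promoters were called higher after DEHP and 6 lower, by limma's test with Benjamini-Hochberg adjustment over all promoters (adjusted p under 0.05 and a log2 difference of at least 1). The shares of 2.17% and 1.63% compare with 4.99% and 1.73% of all promoters. In FVB/N, 21 were called higher (5.71%, against 6.14% of all promoters) and 15 lower (4.08%, against 2.66%). Spermatid-high promoters were called higher in 4.32% and lower in 2.06% of cases in C57BL/6J, while the FVB/N shares were 5.44% and 2.25%. For spermatogonia-high promoters these shares were 4.2% and 0.764% (C57BL/6J), then 4.08% and 2.04% (FVB/N). The 368 had median log2 differences of 0.37 (C57BL/6J) and 0.33 (FVB/N), and all promoters of 0.33 and 0.29, so the set as a whole had a median close to that of all promoters.

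The direction of this shift rests on the scaling. In C57BL/6J, 258 of the 368 promoters had a higher scaled mean after DEHP, yet 199 had a lower mean as deposited, since the scaling itself added 0.56 on the log2 scale. In FVB/N, 245 were higher after scaling and 105 were lower as deposited, and the scaling changed the difference by -0.09. With the means as deposited, the calls in C57BL/6J were 2 higher and 26 lower (2.16% and 9.27% of all promoters), and with groups scaled to equal medians they were 2 and 30 (1.23% and 10.4%). In FVB/N they were 23 and 11 as deposited (6.85% and 2.09% of all promoters), and 6 and 45 with equal medians (1.38% and 10.7%).

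**Figure D2:**
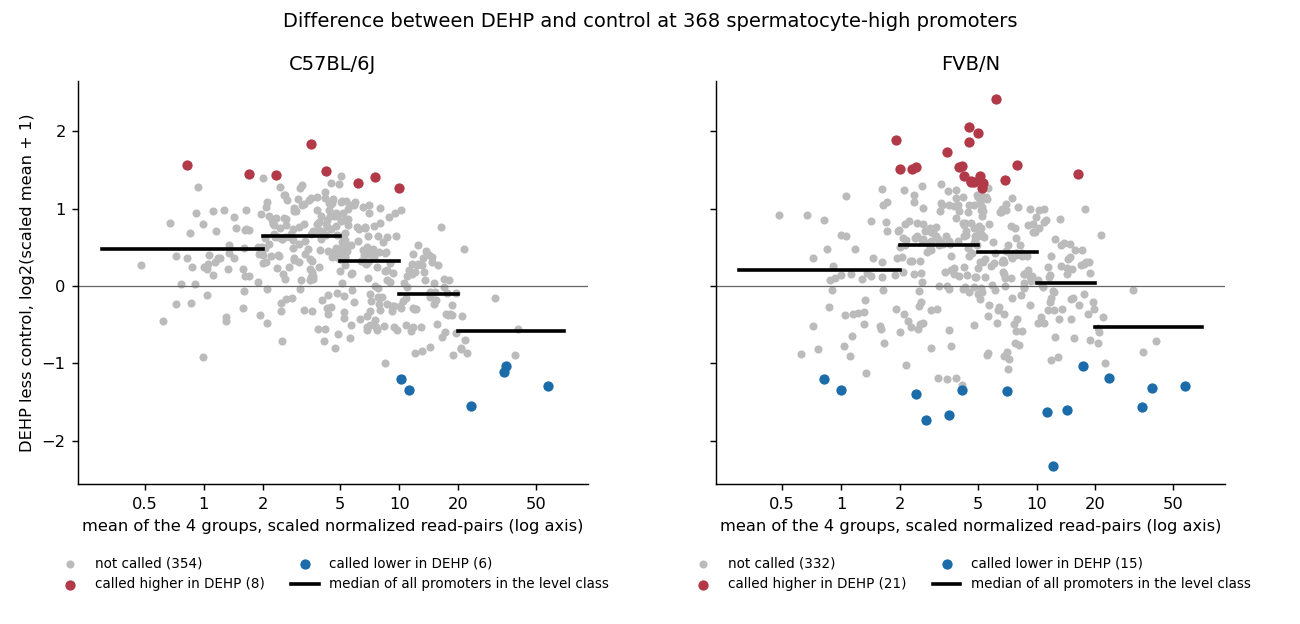
Difference between DEHP and control, as log2(scaled mean + 1), against the mean of the 4 scaled groups on a log axis, for the 368 spermatocyte-high promoters in C57BL/6J (left) and FVB/N (right), with called promoters in color and black bars for the median of all promoters in each class of level. In both strains the points slope downward with the level, from medians of 0.62 and 0.58 at 2 to 5 read-pairs to -0.81 and -0.73 above 20.

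The difference also depended on how heavily a promoter was covered, in the same way as over all promoters. In C57BL/6J the median log2 difference was 0.36 at promoters with a scaled mean under 2 read-pairs, 0.62 at 2 to 5, 0.40 at 5 to 10, -0.09 at 10 to 20 and -0.81 at the 13 promoters over 20. Over all promoters it was 0.48, 0.64, 0.33, -0.11 and -0.58 in these classes. In FVB/N the 368 promoters had 0.13, 0.58, 0.39, 0.04 and -0.73, and all promoters 0.21, 0.54, 0.44, 0.05 and -0.53. Of the 13 heavily covered promoters, 12 were lower after DEHP in each strain and 4 were called lower in each, against 264 (C57BL/6J) and 301 (FVB/N) of all 1569 promoters of that class. Treatment and submission cannot be told apart here. When the trend on the mean level was removed before the test, an alternative chosen after the data were seen, 0 of the 14 calls in C57BL/6J and 13 of the 36 in FVB/N were kept.

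Called in the same direction in both strains were 4 of the 368 promoters that fell and 1 that rose, against 237 and 308 of all 22480 promoters. The share that fell was thus close to that of all promoters, and the share that rose was lower. Cdkl4, with the values given above, fell by 1.29 ± 0.27 (SE) on the log2 scale in C57BL/6J (adjusted p = 0.0032) and by 1.30 ± 0.27 in FVB/N (adjusted p = 0.0017). Mif4gd, whose product binds the histone mRNA stem-loop-binding protein, went from 63.9 ± 22.7 to 19.6 ± 5.3 read-pairs in C57BL/6J and from 43.9 ± 10.4 to 15.2 ± 2.0 in FVB/N. Its differences were -1.11 ± 0.28 (adjusted p = 0.012) and -1.57 ± 0.28 (adjusted p = 0.00025). In FVB/N the means and SDs of Cdkl4 and Mif4gd placed every control library above every DEHP library. The Mif4gd values come from the probe without an annotated exon of that gene.

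Enkd1, a protein with an enkurin domain that is found at centrioles and microtubules, had 51.7 ± 17.1 read-pairs in C57BL/6J controls against 11.4 ± 2.7 after DEHP, and 25.4 ± 12.8 against 11.4 ± 2.7 in FVB/N, with differences of -1.55 ± 0.32 (adjusted p = 0.0029) and -1.19 ± 0.32 (adjusted p = 0.014). Smpd5, a sphingomyelin phosphodiesterase, had 20 ± 8.4 against 4.8 ± 1.6 and 16.3 ± 3.6 against 5.0 ± 2.2. It fell by 1.34 ± 0.35 (adjusted p = 0.016) and by 1.63 ± 0.35 (adjusted p = 0.0025), and its FVB/N libraries did not overlap between control and DEHP. The promoter that rose was Phactr3, a regulator of protein phosphatase and actin, with 2.6 ± 1.0 against 6.6 ± 2.6 read-pairs in C57BL/6J and 1.4 ± 1.6 against 5.5 ± 2.0 in FVB/N. Its differences were 1.49 ± 0.44 (adjusted p = 0.031) and 1.42 ± 0.44 (adjusted p = 0.032). In each strain its call was kept under only 3 of the 7 alternatives, and it was lost with groups scaled to equal medians. The 4 promoters that fell kept theirs under both other scalings, and with the trend on mean level removed the call of Smpd5 in FVB/N was kept and the other 7 were lost.

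**Figure D3:**
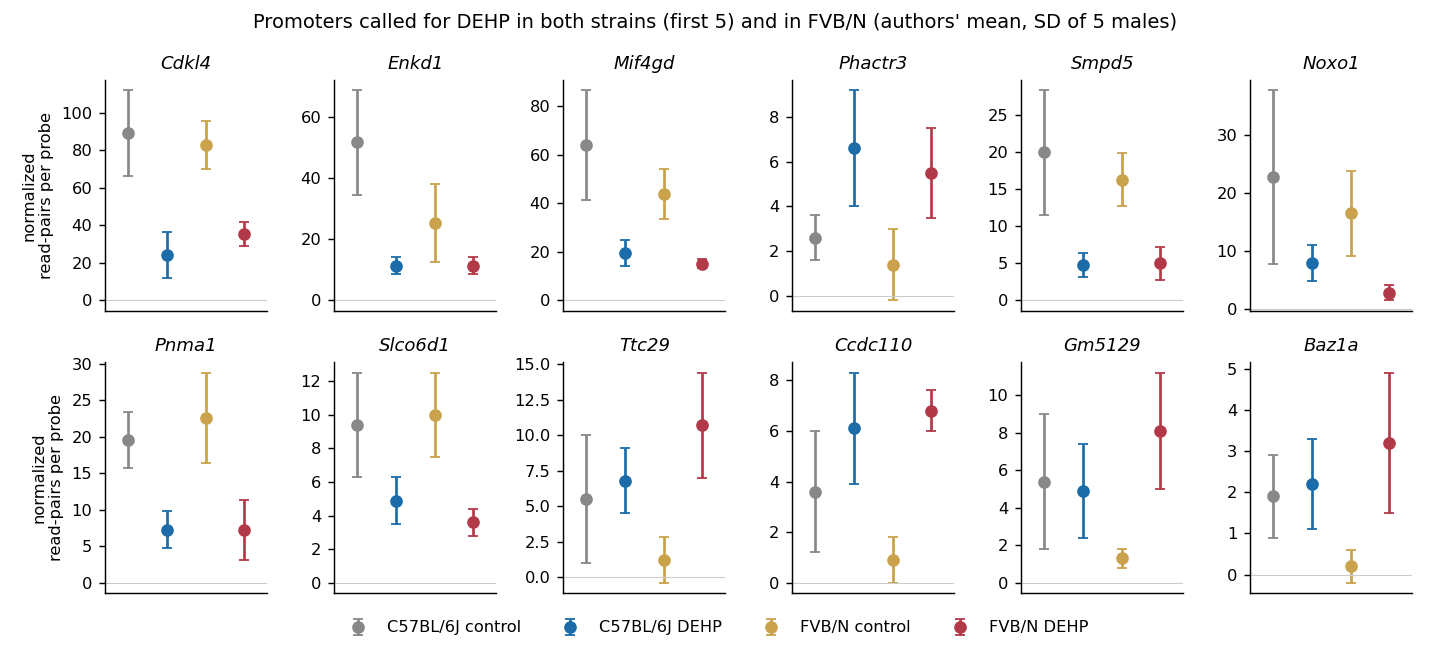
Authors' mean (points) and SD (bars, 5 males) of normalized read-pairs per probe in the 4 groups at 12 spermatocyte-high promoters, each on its own axis. Cdkl4, Enkd1, Mif4gd, Phactr3 and Smpd5 were called in both strains, and the other 7 in FVB/N, where Noxo1 goes from 16.5 to 2.8 and Ttc29 from 1.2 to 10.7 read-pairs.

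The other calls in C57BL/6J concerned genes of several functions. Cklf, a chemokine-like factor, rose from 1.6 ± 0.9 to 6.2 ± 1.4 read-pairs, a log2 difference of 1.83 ± 0.45 (adjusted p = 0.01), and was the 1 promoter whose scaled libraries lay wholly higher after DEHP in this strain, against 1.02% of all promoters. None lay wholly lower by the scaled values (0.129% of all promoters), whereas 6 did as deposited (1.42% of all), among them Cdkl4, Enkd1 and Pnma1. In FVB/N Cklf had 1.2 ± 1.6 and 4.2 ± 1.5 read-pairs, which did not pass the test (1.23 ± 0.45, adjusted p = 0.068). Lrrc6, an assembly factor of axonemal dyneins, had 4.8 ± 3.5 and 10.2 ± 3.4 (1.42 ± 0.42, adjusted p = 0.033). Nmbr, the neuromedin B receptor, had 0.9 ± 1.0 and 3.2 ± 1.4 (1.43 ± 0.42, adjusted p = 0.032). The calls of Lrrc6 and Nmbr were each kept under only 3 of the 7 alternatives and lost with the means as deposited. Dhx58, an RNA helicase of antiviral sensing, fell from 61.7 ± 22.1 to 19.9 ± 9.0 (-1.04 ± 0.30, adjusted p = 0.031). In FVB/N Dhx58 had 39.7 ± 11.6 and 23 ± 9.0, which did not pass the test (-0.85 ± 0.30, adjusted p = 0.063).

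Promoters that fell in FVB/N included the largest difference of the set. Noxo1, the organizer subunit of NADPH oxidase 1, whose probe has 132 CG sites and also holds the start of Gfer, went from 16.5 ± 7.3 to 2.8 ± 1.3 read-pairs, a log2 difference of -2.32 ± 0.39 (adjusted p = 0.00013). In C57BL/6J it had 22.7 ± 15 and 8.0 ± 3.1 (-0.87 ± 0.39, adjusted p = 0.15), where the controls scattered widely. Pnma1, of the family derived from a retrotransposon Gag, had 22.6 ± 6.2 and 7.3 ± 4.1 (-1.61 ± 0.34, adjusted p = 0.002), next to 19.6 ± 3.8 and 7.3 ± 2.5 in C57BL/6J (adjusted p = 0.14). So the deposited means of Pnma1 were alike in both strains, and the scaling set the C57BL/6J value apart. Slco6d1, an organic anion transporter, had 10 ± 2.5 and 3.6 ± 0.8 (-1.36 ± 0.36, adjusted p = 0.013). Ndufaf3, an assembly factor of mitochondrial complex I, had 5.4 ± 2.3 and 1.1 ± 0.8 (-1.74 ± 0.46, adjusted p = 0.012). Cdkn2d, an inhibitor of cyclin-dependent kinases, had 5.6 ± 2.0 and 1.8 ± 1.5 (-1.35 ± 0.43, adjusted p = 0.038). Its call was kept under 5 of the 7 alternatives and lost with the means as deposited. The libraries of 5 of the 368 promoters lay wholly lower after DEHP in FVB/N (1.04% of all promoters did), namely Slco6d1, Smpd5, Mif4gd, Cdkl4 and Slc34a2, a sodium-phosphate cotransporter.

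Promoters that rose in FVB/N started from few read-pairs. Ttc29, a protein of the sperm axoneme, went from 1.2 ± 1.6 to 10.7 ± 3.7 read-pairs (2.41 ± 0.45, adjusted p = 0.00057), the largest rise of the set. In C57BL/6J it had 5.5 ± 4.5 and 6.8 ± 2.3 (0.73 ± 0.45, adjusted p = 0.31). Ccdc110, a coiled-coil protein, went from 0.9 ± 0.9 to 6.8 ± 0.8 (2.05 ± 0.42, adjusted p = 0.0016), and its groups did not overlap. The same was true of Tcea2, a transcription elongation factor of the TFIIS family, with 1.1 ± 1.3 and 6.0 ± 1.0 (1.74 ± 0.46, adjusted p = 0.012), and these were the 2 promoters wholly higher after DEHP by the scaled values, against 0.627% of all promoters. The call of Ccdc110 was kept under all 7 alternatives, that of Tcea2 under 4 of 7. As deposited, the values of Gm5129 and Kdm4d did not overlap either (4 promoters, against 0.774% of all). Gm5129 had 1.3 ± 0.5 and 8.1 ± 3.1 (1.98 ± 0.42, adjusted p = 0.002), Baz1a, a subunit of chromatin remodelers, 0.2 ± 0.4 and 3.2 ± 1.7 (1.88 ± 0.43, adjusted p = 0.004), and Rdh11, a retinol dehydrogenase, 1.3 ± 1.2 and 7.4 ± 3.5 (1.86 ± 0.43, adjusted p = 0.0048). The C57BL/6J controls of these promoters were higher than the FVB/N controls, at 5.4 ± 3.6, 1.9 ± 1.0 and 3.8 ± 1.8, a difference that did not pass the test at any of the 3. In GENCODE the Baz1a probe starts far from the outermost 5′ end of its gene. Kdm4d, a demethylase of histone H3 lysine 9, had 1.4 ± 0.7 and 6.1 ± 1.7 (1.55 ± 0.42, adjusted p = 0.014). Its call was kept under 4 of the 7 alternatives and lost with equal medians. Mdc1, which spreads the DNA damage mark over the sex chromosomes in meiosis and was picked after its values were seen, had 0.6 ± 1.3 and 3.5 ± 1.2 (1.52 ± 0.50, adjusted p = 0.046), a call lost under 5 of the 7 alternatives run for it.

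Promoters were also grouped roughly by how their symbols begin, which does not establish a function. In this grouping 248 promoters fell in no group. Among the groups formed, the largest was that named for axoneme, cilium and centriole. Whether each member of this group has such a role was not tested. Of its 59 promoters, 5 rose in FVB/N (Ttc29, Ccdc110, Ccdc38, Ift122 and Ttc30a1) and 0 fell by limma's test, with 1 lower at an unadjusted p under 0.05. In C57BL/6J 1 rose (Lrrc6) and 0 fell by the same test, with 0 lower at an unadjusted p under 0.05. The shares of all promoters called were those given above, 6.14% higher and 2.66% lower in FVB/N. Of the 5 calls, Ttc29 and Ccdc110 were kept under each of the 7 alternatives run for them, while Ccdc38 and Ttc30a1 lost theirs under 4 and Ift122 under 2, and Lrrc6 in C57BL/6J lost its call under 4. The median log2 difference of the group was 0.66 in FVB/N and 0.50 in C57BL/6J, with median levels of 2.4 read-pairs in FVB/N controls, 4.5 in FVB/N DEHP, 4.0 in C57BL/6J controls and 4.8 in C57BL/6J DEHP. Over all promoters the median difference was positive in both strains in the classes of scaled mean under 10 read-pairs. The levels of the group are as deposited, and the part of the level in its difference was not tested. Of 18 promoters of transporters, channels and membrane proteins, 2 fell in FVB/N, and 2 rose and 1 fell in C57BL/6J. Of 14 promoters of kinases and phosphatases, 2 fell in FVB/N (Cdkl4 and Cdkn2d) and 1 in C57BL/6J (Cdkl4). Of 13 of RNA binding and chromatin, 1 rose in FVB/N (Kdm4d) and 1 fell in C57BL/6J (Dhx58), and of 8 of metabolism 1 fell in FVB/N (Ndufaf3). Of 8 promoters of the ubiquitin system 0 were called by limma's test in either strain, with 1 higher and 1 lower in FVB/N and 1 higher in C57BL/6J at an unadjusted p under 0.05. The nearest to a call there was Trim11, a ubiquitin ligase, with 1.6 ± 2.1 and 5.6 ± 1.5 read-pairs in FVB/N (1.32 ± 0.49, adjusted p = 0.074).

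The comparison of C57BL/6J with FVB/N asks how far the genetic background sets the level at these promoters, and holds both strains within 1 submission. In controls, 7 of the 368 promoters were called higher in C57BL/6J (1.9%, against 0.667% of all promoters). By limma's test 0 were called lower (0.178% of all promoters were), while 25 had an unadjusted p under 0.05 in that direction. By the scaled values, all C57BL/6J control libraries of 1 promoter lay below all FVB/N control libraries (0.111% of all promoters). As deposited this held at 0 of the 368 (0.0267% of all). After DEHP, 3 were called higher (0.815%, against 0.507%) and 0 lower (0.0267% of all promoters), with 8 at an unadjusted p under 0.05. The median log2 difference was -0.03 in controls and 0.01 after DEHP, against 0.00 and 0.02 over all promoters. With the means as deposited 37 of the 368 were called higher in C57BL/6J controls, as were 10.6% of all promoters.

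Pafah2, a platelet-activating factor acetylhydrolase, differed most. Its probe (chr4:134394320-134396519, 43 CG sites) had 15.7 ± 5.8 read-pairs in C57BL/6J controls and 5.7 ± 2.9 in C57BL/6J DEHP, but 0.2 ± 0.5 and 0.6 ± 0.5 in the matching FVB/N groups. The log2 difference between strains was 3.35 ± 0.43 in controls (adjusted p = 1.1e-06) and 2.12 ± 0.43 after DEHP (adjusted p = 0.0047), and no alternative run ended either call. Crisp2, a secreted protein of the acrosome and sperm tail, had 5.9 ± 1.1 and 5.4 ± 1.9 in C57BL/6J controls and DEHP, but 0.2 ± 0.5 and 0.9 ± 0.9 in FVB/N. Its differences were 2.12 ± 0.43 (adjusted p = 0.0041) and 1.79 ± 0.43 (adjusted p = 0.031). The second call was kept under 4 of the 7 alternatives and lost with equal medians. In controls, all C57BL/6J libraries of both promoters lay above all FVB/N libraries by the scaled values, as was the case at 0.307% of all promoters, and as deposited those of Kcnj9 and Ccdc83 did so too (1.06% of all). Pafah2 and Crisp2 were the 2 of the 368 called higher in both treatments, against 54 of all 22480 promoters. The Crisp2 probe begins 12857 bases inside the gene as annotated in GENCODE. Crisp2 was also among the 5 genes with the largest rise of expression in spermatocytes, with Spata4, Pabpc6, Gm7444 and Cmtm2b, none of which was called in any comparison. Nearest to a call among these 4 was Pabpc6, a poly(A)-binding protein, with 3.3 ± 1.6 read-pairs in C57BL/6J controls and 6.0 ± 2.7 in C57BL/6J DEHP (1.13 ± 0.42, adjusted p = 0.081).

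**Figure D4:**
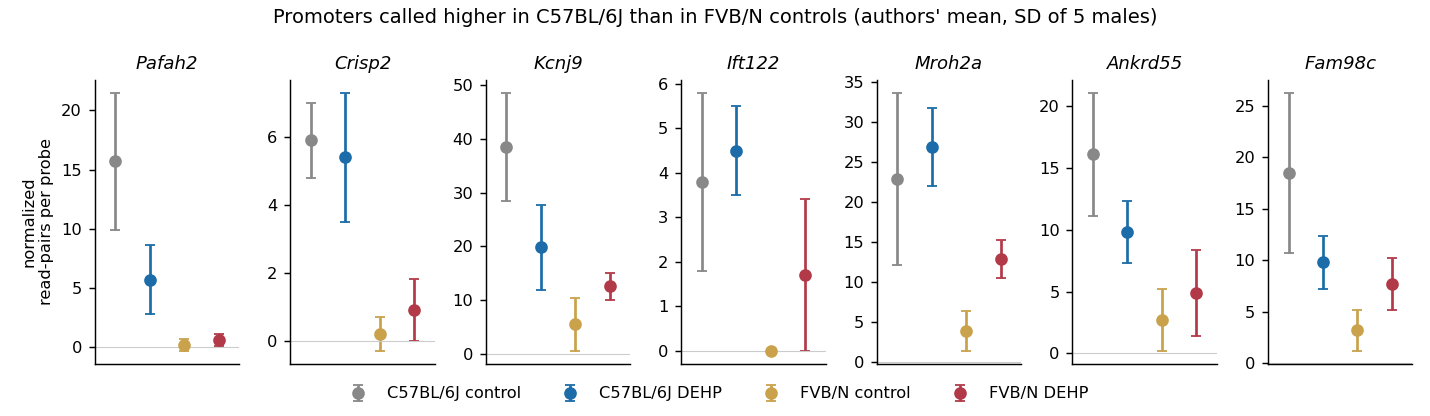
Authors' mean (points) and SD (bars, 5 males) of normalized read-pairs per probe in the 4 groups at the 7 promoters called higher in C57BL/6J than in FVB/N controls, each on its own axis. FVB/N controls (yellow) are lowest at all 7, at 0.2 read-pairs for Pafah2 and Crisp2 and listed at 0 for Ift122.

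At the other 5 promoters the strain difference passed the test in controls and not after DEHP, and the interaction was called at none of them. Kcnj9, a subunit of G-protein-gated potassium channels, had 38.5 ± 10.1 read-pairs in C57BL/6J and 5.5 ± 4.9 in FVB/N controls (1.97 ± 0.37, adjusted p = 0.0011), and 19.9 ± 7.9 and 12.6 ± 2.5 after DEHP (0.60 ± 0.37). Mroh2a, a protein of HEAT repeats with 10 CG sites in its probe, had 22.9 ± 10.8 and 3.9 ± 2.5 (1.67 ± 0.35, adjusted p = 0.0044). After DEHP it had 26.9 ± 4.9 and 12.9 ± 2.4, where the libraries of the strains did not overlap (0.294% of all promoters) although the test was not passed (0.98 ± 0.35, adjusted p = 0.39). Pbx4 was the other promoter whose C57BL/6J libraries lay wholly higher after DEHP, and it was not called there either. Ift122, of intraflagellar transport, had 3.8 ± 2.0 in C57BL/6J controls, was listed at 0 in FVB/N controls, and had 4.5 ± 1.0 and 1.7 ± 1.7 after DEHP. Its adjusted p in controls was 0.012, and its fitted difference depends on the pseudocount. Fam98c had 18.5 ± 7.8 and 3.2 ± 2.0 (1.61 ± 0.37, adjusted p = 0.016), and Ankrd55 had 16.1 ± 5.0 and 2.7 ± 2.5 (1.62 ± 0.42, adjusted p = 0.041). When the spread was taken from the control groups alone, 2 of the 7 calls remained, those of Pafah2 and Ift122.

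The strain calls moved with the number of variants that the authors list between the strains in the probe. Kcnj9 has 27, Mroh2a 14, Pafah2 13, Fam98c 12, Crisp2 10, Ankrd55 9 and Ift122 2. In controls, calls were made at 0 of the 202 spermatocyte-high promoters without a variant, 1 of 82 with 1 to 4, 1 of 30 with 5 to 9 and 5 of 54 (9.26%) with 10 or more. Over all promoters the shares called higher in C57BL/6J were 0.099%, 0.342%, 0.711% and 3.36%. At 10 or more variants the median difference was 0.28 for the spermatocyte-high promoters and 0.27 for all promoters. Read-pairs were aligned to the mm10 genome, which is that of C57BL/6J, and the part of the variants in these differences was not tested.

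The interaction asks whether DEHP moved a promoter differently in the 2 strains. By limma's test 0 of the 368 promoters were called in either direction, as were 0 of all promoters (0%), while 15 and 11 of the 368 and 742 and 342 of all promoters had an unadjusted p under 0.05. The promoter nearest to a call was Smim8, a small integral membrane protein with 8 variants in its probe. Both C57BL/6J controls and FVB/N DEHP were listed at 0, and it had 1.8 ± 1.0 read-pairs in C57BL/6J DEHP and 1.1 ± 0.8 in FVB/N controls. It was called higher after DEHP in C57BL/6J (adjusted p = 0.012), lower in FVB/N (adjusted p = 0.042) and higher in C57BL/6J than in FVB/N after DEHP (adjusted p = 0.039), and had an adjusted p of 0.075 for the interaction. Its 46 CG sites thus carried under 2 read-pairs in every group, and its fitted differences depend on the pseudocount. With a pseudocount of 0.5 it passed the test of the interaction. The study's own test, an edgeR fit on counts of single libraries, did call the interaction at Smim8 and a few other promoters. The tests differ in their input, and the cause of the unlike outcome was not tested. By pyrosequencing the paper reports that most copies of a CpG site there were methylated in every group, with DEHP differences that were not significant.

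A list of 63 textbook genes of meiosis, 55 of which are in the table and 8 among the 368, was set beside them. The 8 were Stag3 of the meiotic cohesin, Sycp2 and Syce1 of the synaptonemal complex, Meiob, Psmc3ip and Cntd1 of strand exchange and crossover, Spdya of telomere attachment and the kinase Aurkc. None of the 8 was called by limma's test in any comparison, although Sycp2, Syce1 and Meiob had an unadjusted p under 0.05 in at least 1 comparison. Stag3, the highest of them, had 16.1 ± 3.0 and 7.4 ± 2.2 read-pairs in C57BL/6J controls and DEHP, and 11.6 ± 4.6 and 8.6 ± 4.1 in FVB/N. The largest difference among the 8 was that of Sycp2 between the strains in controls, with 2.8 ± 1.2 in C57BL/6J and 6.1 ± 4.6 in FVB/N (-1.42 ± 0.43, adjusted p = 0.11).

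**Figure D5:**
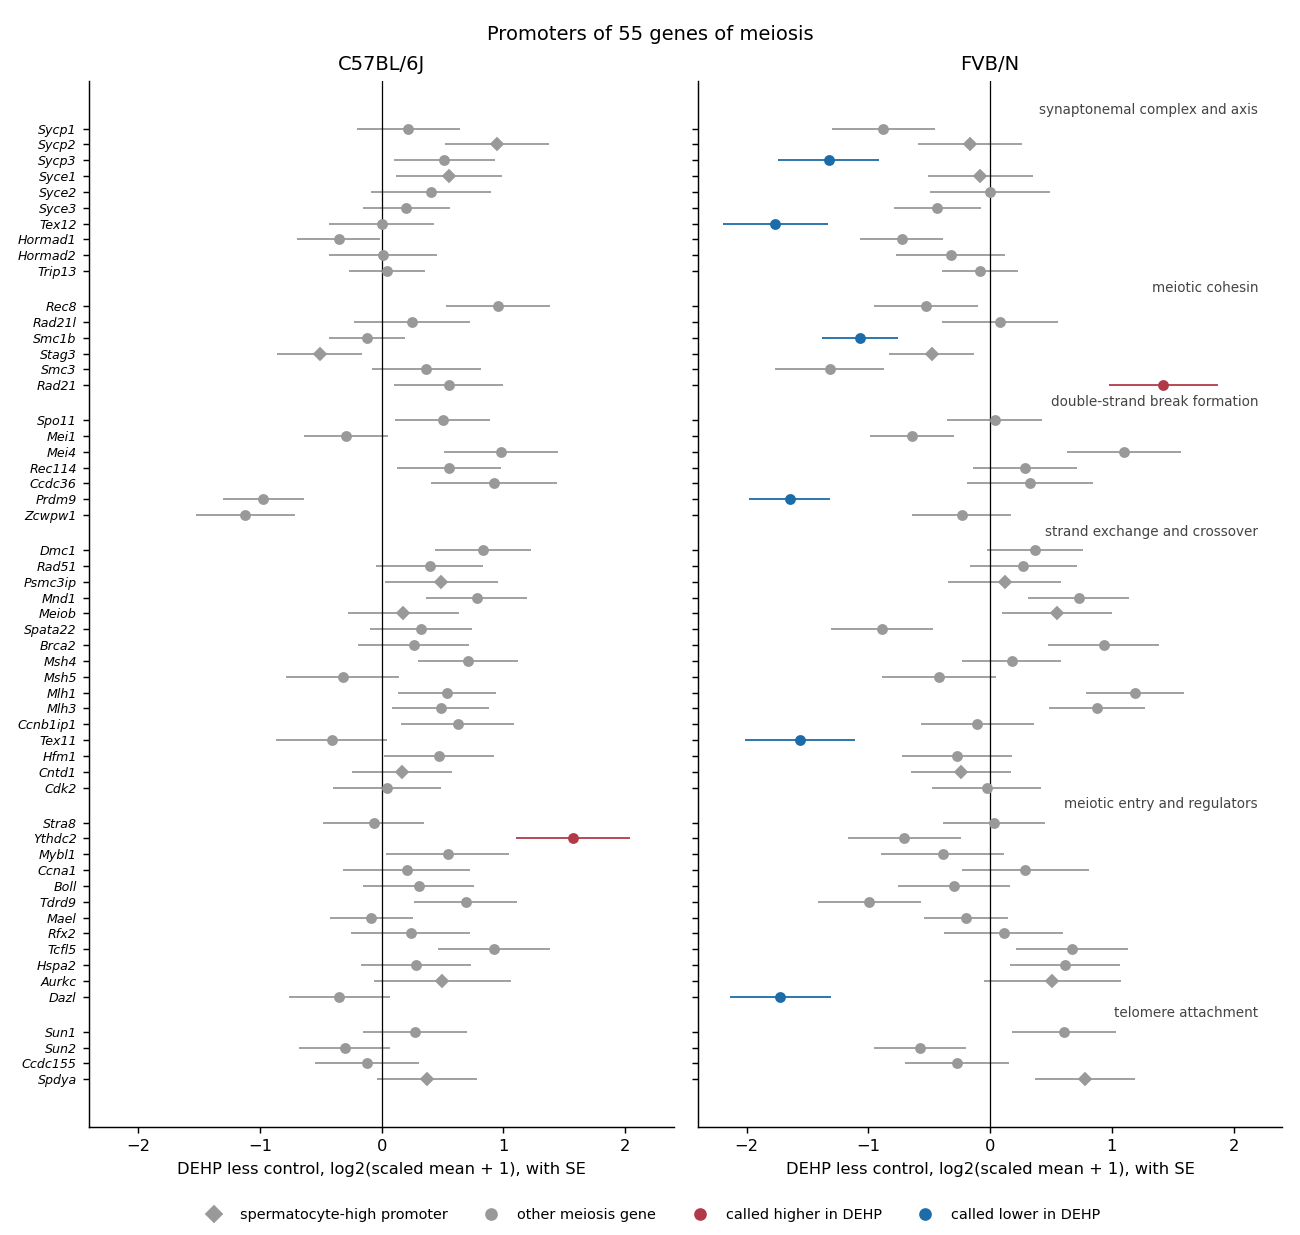
Difference between DEHP and control, as log2(scaled mean + 1) with its SE, at the promoters of 55 genes of meiosis in C57BL/6J (left) and FVB/N (right), with diamonds for the 8 that are spermatocyte-high promoters. In FVB/N 6 promoters were called lower (blue) and 1 higher (red), none of them a diamond, and in C57BL/6J 1 was called higher.

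Among the other meiosis genes, calls were made mainly in FVB/N. There 6 of the 55 promoters fell after DEHP and 1 rose, with a median log2 difference of -0.10, whereas in C57BL/6J 0 fell by limma's test (2 at an unadjusted p under 0.05), 1 rose and the median was 0.30. Of all promoters 2.66% fell and 6.14% rose in FVB/N, with a median of 0.29. Prdm9, the methyltransferase that marks recombination hotspots, went from 19.1 ± 4.6 to 5.9 ± 2.1 read-pairs in FVB/N (-1.64 ± 0.33, adjusted p = 0.0014), with no overlap between the groups. In C57BL/6J it had 20.7 ± 6.5 and 6.7 ± 2.1 (-0.97 ± 0.33, adjusted p = 0.061), so that its deposited means were close to those of FVB/N. Dazl, an RNA-binding protein of germ cells, had 10.6 ± 3.3 and 2.8 ± 1.7 in FVB/N (-1.72 ± 0.42, adjusted p = 0.0068). Tex12 of the synaptonemal complex had 6.8 ± 2.7 and 1.5 ± 0.5 (-1.76 ± 0.43, adjusted p = 0.0076), and the calls of Prdm9, Dazl and Tex12 were kept under each of the 7 alternatives run for them. Sycp3 of the synaptonemal complex axis had 4.8 ± 1.7 and 1.5 ± 0.5 (adjusted p = 0.034), Tex11, a crossover factor on the X chromosome, 3.3 ± 2.0 and 0.6 ± 0.8 (adjusted p = 0.023), and the cohesin subunit Smc1b 28.8 ± 8.8 and 14.2 ± 3.3 (adjusted p = 0.024). Sycp3 and Smc1b each lost the call under 2 of the 7 alternatives, the means as deposited among them, and Tex11 under 1. The deposited means in C57BL/6J controls and DEHP also fell at Dazl (7.5 ± 5.3 and 3.8 ± 1.7) and Tex12 (3.1 ± 2.8 and 2.1 ± 0.8). They fell too at Tex11 (2.6 ± 2.0 and 1.1 ± 0.7) and Smc1b (24.4 ± 7.8 and 15.1 ± 6.5), but not at Sycp3 (2.9 ± 1.9 and 3.2 ± 1.0). The interaction was called at 0 of the 55, so a difference between the strains was not shown. The promoter that rose in FVB/N was that of the cohesin subunit Rad21, with 0.7 ± 0.6 and 3.5 ± 2.1 (adjusted p = 0.036), a call lost under 4 of the 7 alternatives. In C57BL/6J Ythdc2, a regulator of the entry into meiosis, rose from 0.2 ± 0.5 to 2.2 ± 2.1 (adjusted p = 0.032), a call lost under 3 of the 7 alternatives. Between the strains, 0 of the 55 were called by limma's test in controls or after DEHP, with 1 higher and 11 lower in C57BL/6J controls and 3 higher and 0 lower after DEHP at an unadjusted p under 0.05.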

How the data were processed

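Sperm DNA of 20 males in 4 groups was measured by MBD-sequencing with the MethylCap kit. The authors aligned read-pairs with Bowtie 0.12.7 onto mm10, removed ambiguous and non-concordant pairs as well as pairs without CpG between their ends, and normalized the number of pairs per promoter probe with edgeR, as the methods and the submitters' processing notes state. The deposited signal is the mean and SD of normalized read-pairs per group, given with 1 decimal. The deposited expression values (a score on a scale not stated) come from an independent study, and the numbers of CG sites and variants are the authors' annotations. Another 9 deposited columns hold the authors' fold changes, p-values and FDR, and were not used.

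Group means and SDs were scaled to equal sums over 22480 promoters (factors of 0.741 and 1.09 for C57BL/6J controls and DEHP, then 1.19 and 1.12 for FVB/N). Each contrast of log2(scaled mean + 1) was tested with limma 3.58.1 (moderated test with a mean trend), the variance being derived from the SDs by the delta method and pooled over the 4 groups. This replaced a fit on single libraries, whose values were not used here. P-values were adjusted by the Benjamini-Hochberg method over all promoters. Libraries were called non-overlapping when the scaled means ± 1.79 SD, the furthest a value of 5 can lie from its mean, did not meet, with mean and SD each widened by 0.05 for rounding before scaling. The same bound on deposited values was added after the data were seen. With counts per library unknown, no counting interval was given. The tests were tested on simulated data.

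Named promoters were the 5 called with the smallest p per contrast and direction, the 8 highest, the 5 with the largest expression difference, those called in both strains or both treatments, up to 2 per role group and those on the meiosis list. Promoters whose libraries did not overlap, the rest of the 13 highest, Ccdc83, Mdc1, Fam98c, Ankrd55, Ccdc38 and Ttc30a1 were added after their values were seen. The promoters, role groups and lists were chosen with earlier results of these data known. Annotation came from GENCODE on GRCm38.p6 and promoter sequence from RefSeq. R 4.3.3 and Python 3.11.15 were used with numpy 2.4.6, pandas 2.3.3 and matplotlib 3.10.9. Alternatives were other scalings, removal of trends on CG sites or level (lowess fraction of 0.3), a pseudocount of 0.5, a mean of at least 1, the spread of the compared groups alone, no minimum difference and an expression difference of at least 4.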

Additional observations from a re-analysis of the deposited data

How the results depend on the processing

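No call of a promoter reversed its direction under any alternative run. In C57BL/6J, the 8 promoters called higher after DEHP became 2 with the means as deposited, 2 with equal medians, 2 with the trend on CG sites removed, 39 with the spread of the compared groups alone, 4 (of 195 promoters) with an expression difference of at least 4 and 0 with the trend on mean level removed, the last being chosen after the data were seen. The shares of all promoters, 4.99% at first, were 2.16%, 1.23%, 0.578%, 12.7%, 4.99% and 0.0222% in that order. The 6 called lower became 26, 30, 10, 6, 2 and 0 in the same order, and the shares of all promoters, 1.73% at first, 9.27%, 10.4%, 2.95%, 2.1%, 1.73% and 0.0756%. In FVB/N, the 21 called higher became 6 with equal medians, 7 without the CG trend, 8 with the compared groups' spread, 10 with the stricter expression difference and 5 without the level trend (1.38%, 1.17%, 1.63%, 6.14% and 0.698% of all promoters), and the 15 called lower became 45 with equal medians, 9 with the compared groups' spread and 6 with the stricter expression difference (10.7%, 1.88% and 2.66% of all promoters). Between strains in controls, the 7 called higher became 37 as deposited, 2 with the compared groups' spread and 2 with the stricter expression difference (10.6%, 0.156% and 0.667% of all promoters), and the 0 called lower became 3 with equal medians, 1 without the CG trend and 1 without the level trend (0.365%, 0.214% and 0.2%). After DEHP, the 3 called higher became 1 with equal medians, 6 with the compared groups' spread, 1 with the stricter expression difference and 1 without the level trend (0.276%, 1.13%, 0.507% and 0.383% of all promoters). For the interaction, 1 was called with a pseudocount of 0.5. The other counts stayed within 1.5 times. The median difference for DEHP changed sign in C57BL/6J (-0.07 as deposited, -0.14 with equal medians, -0.02 without the level trend) and in FVB/N (-0.17 with equal medians), and the median difference between strains in controls was 0.54 as deposited. Counts with the stricter expression difference fall because fewer promoters are counted, and the cause of the other changes was not tested. Calls kept under all alternatives were those of Pafah2 in both strain comparisons, Ift122 between strains in controls, and, for DEHP in FVB/N, Noxo1, Ttc29, Ccdc110, Gm5129, Baz1a, Pnma1, Smpd5, Ndufaf3 and Slco6d1. Leaving out single libraries was not run, since their values were not used here. No paired analysis was possible because the labels give no shared replicate numbers and the values are group means. Depth per library is unknown, and means under 2 read-pairs rest on few fragments.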
